A study of Mus musculus with 6 samples.

Results

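The major histocompatibility complex (MHC) of the mouse, called H2, encodes the proteins that display peptides on the cell surface to T cells, and relatives with the same fold are encoded elsewhere in the genome. *Mill1*, an MHC class I-like gene on chromosome 7, was examined together with the genes of antigen presentation in the proximal incisor. Members were all genes of the expression table whose name begins with H2-, together with 22 named genes of the light chain, peptide loading, the immunoproteasome, the transcriptional activators and the class I-like proteins outside the MHC. Of the 19270 genes in the table, 46 were members, namely 25 H2- genes and 21 of the 22 named genes, *Azgp1* being the name not listed. The set was chosen by the difference between the group means of these same libraries, in which *Mill1* was much higher in mutants, so its difference is given as a description. GENCODE vM21 names 20 further H2- genes, which were not analysed here.

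Bulk RNA-seq was performed on proximal mesenchymal tissue of the incisor from 3 control and 3 mutant mice. The mutants carried *Gli1-CreER* and homozygous floxed *Arid1b* (*Arid1b fl/fl*). The *Gli1* promoter drives a tamoxifen-dependent Cre, so that *Arid1b*, a subunit of the BAF chromatin remodelling complex, is deleted in the GLI1+ lineage, which in the incisor includes mesenchymal and epithelial cells. The labels call the controls wild type, whereas the study's methods describe *Arid1b fl/fl* mice that received the same tamoxifen. Both groups were therefore exposed to tamoxifen, at 1 month of age, and were collected 4 days after induction, but the controls lacked a described Cre. The tables give a mean of normalized signal for each gene in each group. Values per gene and mouse were not analysed here, so that the spread between mice is unknown, no test was run, and each mean below is the authors' mean without an error. A gene was counted as higher or lower past the fold when the group means differed by more than 1.5-fold, and such a count does not show a difference beyond the variation between mice.

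The targeted gene had an authors' mean of 97.6 in controls and 38.0 in mutants. From the lowest values, the libraries were estimated to hold 37123643 to 49594469 reads on the genes of the table, a depth that sets the precision of low values. The level at 3 reads per library would be 0.103 in controls and 0.0923 in mutants, and all 46 members lay above it in both groups. The X-linked transcript *Xist* had means of 3368 in controls and 813.8 in mutants, and the Y-linked *Ddx3y* stood at the lowest value of the table in controls and at 65.3 in mutants. Sex and genotype therefore cannot be told apart in any comparison below. In whole tissue, fewer cells of a type and less RNA per cell cannot be told apart either.

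Class I molecules consist of a polymorphic heavy chain, β2-microglobulin and a peptide, and are made by nearly all nucleated cells. The peptides are cut by the proteasome, carried into the endoplasmic reticulum by the TAP transporter and loaded there with the help of tapasin. Class II molecules are made mainly by dendritic cells, macrophages and B cells, and acquire their peptides in endosomes after removal of the invariant chain. Interferon-γ induces both pathways, through NLRC5 for class I and CIITA for class II. MILL1 and MILL2 belong to the class I family and bind β2-microglobulin, but do not depend on TAP.

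*Mill1* was the member with the largest difference between the groups. Its authors' mean of normalized signal was 1.62 in controls and 6.32 in mutants, which is 3.90-fold higher in mutants, or 1.96 on the log2 scale. These means would correspond to about 185 and 818 reads over the 3 libraries of each group. Among the 4433 genes with a mean over both groups of 1 to 10, 21 had a larger log2 difference towards the mutants. Per kb of annotated exon, the signal of *Mill1* was 0.651 in controls and 2.54 in mutants, at rank 33 and rank 27 of the 46 members, so that it was a gene of low level among the members in both groups. *Mill1* lies on chromosome 7 of GRCm38 from 18245347 to 18266092 on the plus strand, and no other GENCODE gene overlaps it.

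The closest relative of *Mill1* did not share this difference. *Mill2* (chromosome 7, 18839966 to 18865402) had means of 21.99 in controls and 18.4 in mutants, 1.19-fold lower in mutants. The ratio of *Mill1* to *Mill2* signal was 0.0737 in controls and 0.343 in mutants. Over the best local alignment of their coding sequences, which spanned 811 bases, *Mill1* and *Mill2* were identical at 83.2% of positions. The next longest alignment of *Mill1* was to *H2-D1* and spanned 110 bases. Of all 50-base stretches in *Mill1* transcripts, 0.328% also occur in transcripts of other genes, so few of its reads could equally come from another gene. Within 250 kb of *Mill1* the table held 2 other genes, chosen for their position. *Gm45104*, a transcript of unknown coding status that starts 130424 bases beyond the end of *Mill1*, had means of 15.9 in controls and 7.10 in mutants. *Gm4880*, a processed pseudogene, was under 1 in both groups, with means of 0.134 and 0.210.

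The DNA upstream of the gene starts is shown for *Mill1* and for 3 genes of the classical pathways, which differ in their matches to the motifs below. Whether these motifs bear on any difference between the groups was not tested. Each sequence comes from RefSeq on GRCm38.p6 and runs 5′ to 3′ from 250 bases before the annotated start to 50 bases after it. *H2-K1* has 2 promoters listed, of which the first is shown, and its positions refer to that start. Capitals mark matches, on either strand, to the core of the interferon-stimulated response element (a motif of 10 bases), a STAT site (TTCNNNGAA), the inverted CCAAT of the Y box (ATTGG), the CREB-type X2 box (TGACGTCA or TGACGCA) and the Rel site of the class I enhancer (a palindrome of 11 bases, also searched with any central base, a form that includes it).
Mill1, chr7:18245097-18245396, plus strand: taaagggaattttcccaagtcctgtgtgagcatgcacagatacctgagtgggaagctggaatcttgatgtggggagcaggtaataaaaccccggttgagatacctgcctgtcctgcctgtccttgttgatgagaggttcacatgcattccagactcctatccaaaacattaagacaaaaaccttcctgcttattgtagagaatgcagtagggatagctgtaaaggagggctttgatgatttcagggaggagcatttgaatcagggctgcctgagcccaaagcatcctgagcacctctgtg
H2-K1, chr17:34000298-34000597, minus strand: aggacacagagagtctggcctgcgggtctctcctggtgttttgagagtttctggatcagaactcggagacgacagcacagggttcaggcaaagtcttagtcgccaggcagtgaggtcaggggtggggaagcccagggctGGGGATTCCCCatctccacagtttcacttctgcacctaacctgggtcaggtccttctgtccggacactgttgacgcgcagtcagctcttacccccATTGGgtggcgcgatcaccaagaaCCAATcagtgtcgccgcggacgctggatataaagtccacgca
B2m, chr2:122147437-122147736, plus strand: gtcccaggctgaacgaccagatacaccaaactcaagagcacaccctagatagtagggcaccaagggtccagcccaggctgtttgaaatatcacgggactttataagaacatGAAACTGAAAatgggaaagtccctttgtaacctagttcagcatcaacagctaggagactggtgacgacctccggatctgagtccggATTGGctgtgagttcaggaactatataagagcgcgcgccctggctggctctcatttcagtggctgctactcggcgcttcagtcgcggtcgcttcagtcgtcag
H2-Aa, chr17:34287774-34288073, minus strand: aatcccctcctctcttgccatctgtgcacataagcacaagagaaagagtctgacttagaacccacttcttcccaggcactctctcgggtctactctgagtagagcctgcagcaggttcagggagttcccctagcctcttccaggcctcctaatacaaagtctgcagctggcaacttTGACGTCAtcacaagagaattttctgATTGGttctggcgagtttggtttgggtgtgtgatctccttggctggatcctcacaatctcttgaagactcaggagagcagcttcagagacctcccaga

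The window of *Mill1* held none of these motifs, and neither did the windows of *Mill2*, *Fcgrt*, *Mr1*, *Hfe* and *Procr*, all within the fold. The windows of *H2-M5*, *H2-Q10*, *Psme2*, *Psmb10* and *H2-DMa*, also within the fold, held none either. Only exact matches were counted, so an element with other letters would be missed in any window. The window of *H2-K1* held a Rel site at position -111 from the start and 2 matches to the Y box letters. These were ATTGG at -16 and, on the opposite strand and so printed as CCAAT, a match at 9. That of *B2m* held an interferon element at -139 and a Y box at -53, and that of *H2-Aa* an X2 box at -74 and a Y box at -48. A promoter was found for 35 of the 46 members, the others being *H2-T24*, *H2-T10*, *H2-K2*, *H2-Q5*, *Cd1d1*, *Tap2*, *Tapbpl*, *Cd74*, *H2-Ab1*, *Nlrc5* and *Ciita*. Taking the first promoter of each gene, the interferon element was present in 5 of the 35 members (14.3%) and in 3.49% of 27025 genes. These were *H2-T22*, *H2-T23*, *B2m*, *Erap1* and *Psme1*. The Y box was present in 21 members (60%) and in 37.9% of all genes. The Rel site was present in *H2-D1*, *H2-K1* and *H2-Q6* (8.57%) and in 0.0222% of all genes, and in the same 3 members and 0.0444% of all genes with any central base. STAT sites were found in 8.57% of the members and 8.47% of all genes. The X2 box TGACGTCA was found in *H2-Aa* alone among the members and in 1.88% of all genes. No member held TGACGCA, which occurs in 2.19% of all genes, and a missing match says only that these letters are not in this window.

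Over all 46 members, 4 were higher in mutants past 1.5-fold and 0 were lower past it. Across all 19270 genes, 7.37% were higher and 5.8% lower past the same fold, so that the share of 8.70% among the members lay near the background for higher genes, and the set as a whole did not stand out by this count. Besides *Mill1*, the genes past the fold were *H2-T-ps*, *H2-M9* and *H2-Oa*, all with means under 1. Among genes with a mean over both groups under 1, 17.9% were higher and 18.4% lower past 1.5-fold, whereas among genes of 1 to 10 these shares were 8.75% and 4.24%. All 8 members with a mean under 1 were higher in mutants, against 47.7% of the 4526 genes of that level. They rest on few reads, and *H2-Q5* was higher by only 0.01 on the log2 scale. Some share sequence with each other, as *H2-Q5* and *H2-Q10* do, so the 8 are not independent. Of the 38 members with a mean of at least 1, 22 were higher and 16 lower, and *Mill1* was the only member past the fold, against 4.14% of all genes at that level higher and 1.91% lower. In all, 30 members were higher and 16 lower, against 50.5% of all genes higher. With the group means divided by the mean total of each group's libraries, which moves every gene by the same 0.06 on the log2 scale, 34 were higher and 12 lower, against 63.7% of all genes higher. The median log2 difference was 0.08 over the 46 members and 0.00 over all genes. Among the 25 members with a mean of at least 10, 0 were past the fold (background 2.15% higher and 0.912% lower), and 22 (88%) differed by less than 0.32 on the log2 scale, against 90.6% of all genes at that level.

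**Figure D1:**
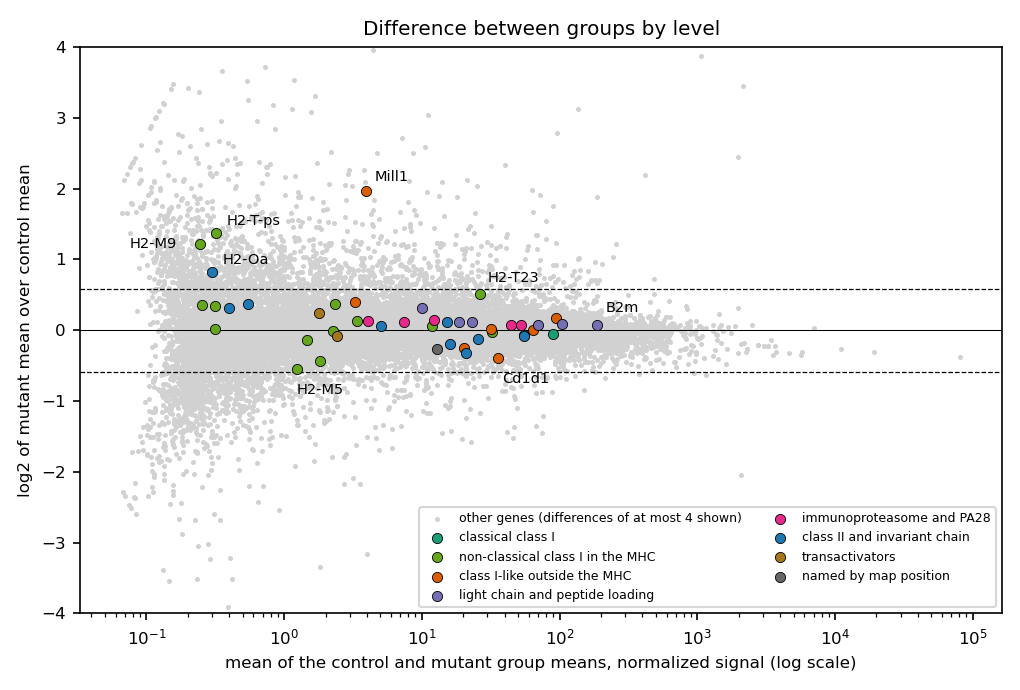
Log2 of mutant mean over control mean (vertical axis) against the mean of both group means of normalized signal (horizontal axis, log scale) for the 46 members, coloured by role, and the other genes of the table in grey. Dashed lines mark 1.5-fold. *Mill1* stands at 1.96 on the log2 scale, and the other 3 members past the fold have means under 1.

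The classical class I heavy chains, which present peptides to CD8+ T cells, were close to equal in the groups, *H2-D1* turning to higher with the group means scaled to totals. *H2-D1* (chromosome 17, 35262730 to 35267499) had means of 91.5 in controls and 88.2 in mutants. *H2-K1* (chromosome 17, 33996017 to 34000347) had means of 56.9 and 54.1, which is 1.05-fold lower in mutants. Their light chain *B2m* had the highest signal per kb of all members, at 213.3 in controls and 225.1 in mutants, and group means of 183.4 and 193.6. The ratio of *H2-K1* to *B2m* signal was 0.310 in controls and 0.280 in mutants. The heavy chains and the light chain of the classical molecule thus lay within 0.08 of equality on the log2 scale.

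Of the 14 non-classical class I genes of the MHC, 9 were higher and 5 lower in mutants, with a median log2 difference of 0.10, and *H2-T22* and *H2-Q7* turned to higher with the group means scaled to totals. *H2-T23*, which encodes Qa-1, the ligand of the CD94/NKG2 receptors of natural killer cells, had the largest difference among the 25 members with a mean of at least 10. It lies on chromosome 17 from 36029773 to 36032855, and its means were 21.8 in controls and 30.9 in mutants, 1.42-fold higher and just short of the fold. *H2-T22* and *H2-T10*, whose products are recognised by a subset of γδ T cells, had means of 32.4 and 1.53 in controls and 31.8 and 1.39 in mutants, and lay within 0.14 of equality on the log2 scale. *H2-Q4* had means of 11.6 and 12.1, and *H2-M3*, which presents N-formylated peptides, had means of 3.25 and 3.57. *H2-T24* had means of 2.03 and 2.63, and *H2-Q7*, which encodes Qa-2, had means of 2.28 and 2.26. Among *H2-Q4*, *H2-M3*, *H2-T24* and *H2-Q7*, the largest log2 difference was 0.37, in *H2-T24*. The largest differences towards the controls were those of *H2-M5*, with means of 1.47 and 1.00 in controls and mutants, and *H2-Q6*, with means of 2.10 and 1.55. They were 1.46-fold and 1.35-fold lower in mutants. *H2-M5* and *H2-T23* were the members just inside the bound of 1.5-fold, and *H2-Oa*, at 1.77-fold, was the one just past it.

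The non-classical genes past the fold had the lowest control means of their group. The pseudogene *H2-T-ps* (chromosome 17, 36109234 to 36111658) had means of 0.179 in controls and 0.465 in mutants, corresponding to about 18 and 57 reads over the 3 libraries. *H2-M9* (36639285 to 36642666) had means of 0.148 and 0.345, or about 14 and 42 reads. *H2-T-ps* shares 29.4% of its 50-base stretches with other genes, the largest part with *H2-T23*, and overlaps *Gm7030* on the same strand, so its value is uncertain. *H2-K2*, *H2-Q5* and *H2-Q10*, at 0.312 or less in controls and 0.353 or less in mutants, were higher in mutants within the fold. In *H2-M9*, 0.903% of the stretches are shared.

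Such sharing was common among the H2 class I genes. Over 10% of the 50-base stretches were shared with another gene in 15 of the 46 members, with 34.5% in *H2-T22*, 32.9% in *H2-T10*, 36.4% in *H2-Q5* and 32.0% in *H2-Q6*, and none was shared in 15 members. The coding sequence of *H2-K1* was 92.3% identical to that of *H2-D1* over 1071 bases and 85.9% identical to that of *H2-T23* over 987 bases. How reads that fit several genes were counted is not given in the sources used here, and the values of the *H2-Q* and *H2-T* genes are uncertain for this reason. *H2-T22*, *H2-T23* and *H2-T24* also overlap the antisense transcript *A930015D03Rik*, whose means were 0.714 in controls and 0.611 in mutants.

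**Figure D2:**
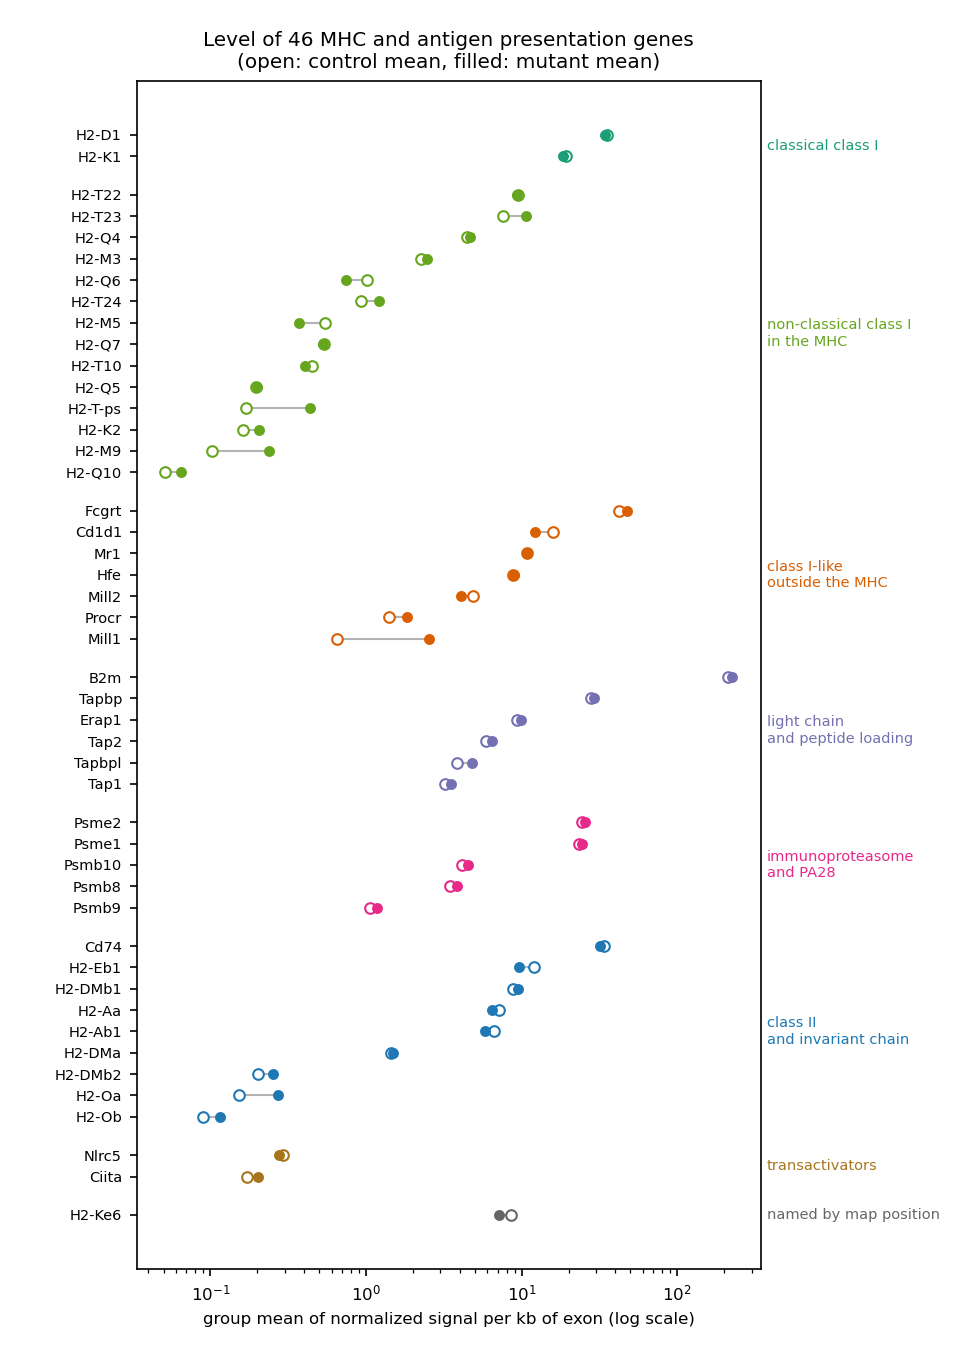
Group means of normalized signal per kb of exon (horizontal axis, log scale) for the 46 members, arranged by role, with open circles for the controls and filled circles for the mutants. Each circle is the mean of 3 libraries without an error, and *Mill1* moves from 0.651 to 2.54 while most other circles overlap.

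Outside the MHC, 7 class I-like members were listed, of which 4 were higher and 3 lower, *Mr1* turning to higher with the group means scaled to totals, and only *Mill1* was past the fold. *Fcgrt*, the neonatal Fc receptor that salvages IgG and albumin, had means of 88.4 in controls and 99.3 in mutants. *Mr1*, which presents vitamin B metabolites to MAIT cells, had means of 64.7 and 64.5. *Hfe*, a regulator of iron uptake, had means of 31.6 and 32.0. These 3 genes were within 0.17 of equality on the log2 scale. *Procr*, the endothelial protein C receptor, had means of 2.85 and 3.75 and was 1.31-fold higher. *Cd1d1*, which presents lipids to natural killer T cells, had means of 40.9 in controls and 31.2 in mutants, 1.31-fold lower, whereas its neighbour *Cd1d2*, not a member, had means of 0.586 and 1.28, 2.19-fold higher. *Cd1d1* shares 19.1% of its 50-base stretches with *Cd1d2*, and their sum was 0.783 times the control level in mutants.

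The 6 members of the light chain and of peptide loading were slightly higher in mutants, and none was past the fold. The 5 genes listed with the loading chaperones outside the members had log2 differences of -0.44 to -0.01. The 6 members had log2 differences of 0.08 to 0.32, with a median of 0.10. *Tap1* and *Tap2*, the subunits of the peptide transporter, were both 1.09-fold higher. Their means were 17.7 and 22.3 in controls and 19.3 and 24.3 in mutants. *Tapbp*, which encodes tapasin, and *Erap1*, the trimming peptidase of the endoplasmic reticulum, were each 1.06-fold higher, with means of 100.5 and 68.3 in controls and 106.5 and 72.2 in mutants. *Tapbpl*, a tapasin-related peptide editor, had the largest difference of the group, with means of 9.0 and 11.2, or 0.32 on the log2 scale. *Tap1* overlaps *Psmb9* on the opposite strand, and whether reads were counted by strand is not given in the sources used here.

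All 5 genes of the immunoproteasome and its PA28 activator were higher in mutants, against 50.5% of all genes. The catalytic subunits *Psmb8*, *Psmb9* and *Psmb10*, which replace constitutive subunits under interferon-γ, were 1.11-fold, 1.09-fold and 1.09-fold higher, and the subunits of PA28, *Psme1* and *Psme2*, were 1.05-fold and 1.06-fold higher. In the controls the means were 11.7, 3.91 and 7.07 for the catalytic subunits and 51.5 and 42.9 for the activator, and in mutants 12.98, 4.27 and 7.69 and 53.9 and 45.3. These differences were 0.07 to 0.14 on the log2 scale, and 4 of the 5 were under 1.1-fold, a range that held 49.9% of all genes. *Psme2* shares 28.3% of its 50-base stretches with other genes, chiefly *Psme2b*. Of the 4 constitutive genes listed for comparison, 3 were lower and *Psme3*, with means of 87.4 and 90.3, was higher, and 0 were past the fold. The ratio of *Psmb8* to its constitutive counterpart *Psmb5* was 0.326 in controls and 0.409 in mutants, that of *Psmb9* to *Psmb6* 0.0621 and 0.0732, and that of *Psmb10* to *Psmb7* 0.109 and 0.122. All 3 ratios were higher in mutants, by differences whose spread between mice is not known.

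Of the 9 class II genes, 5 were higher and 4 lower in mutants, with a median log2 difference of 0.06. The 4 lower genes were 3 chains of the presenting molecules and the invariant chain. The 5 higher genes act on peptide loading, and 3 of these had means under 1, a level at which all 8 members were higher. *H2-Aa* (chromosome 17, 34282744 to 34287823) had means of 26.97 in controls and 24.6 in mutants, 0.913 times the control level. *H2-Ab1*, which encodes its partner chain, had means of 17.1 and 14.9, and *H2-Eb1*, the β chain of I-E, had means of 23.3 and 18.6. These were the presenting chains, and the largest log2 difference among them was -0.33, in *H2-Eb1*. *Cd74*, the invariant chain, had means of 56.6 and 53.6, 1.05-fold lower. *H2-DMa* and *H2-DMb1*, which form the H2-DM exchanger of peptides, had means of 4.96 and 14.7 in controls and 5.18 and 15.9 in mutants. The ratio of *H2-DMb1* to *Cd74* was 0.260 and 0.297. *H2-Oa* and *H2-Ob*, which together form an inhibitor of H2-DM, and *H2-DMb2* had means under 1. *H2-Oa* (34092340 to 34095234) was past the fold, with means of 0.216 and 0.382, or about 22 and 47 reads over the 3 libraries, and it overlaps *BC051537* on the opposite strand. *H2-Ob* had means of 0.482 and 0.620, and *H2-DMb2* of 0.355 and 0.440.

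Among markers of the cells that make class II molecules, those of macrophages were mostly higher and those of dendritic cells were higher and lower in equal number. Of 10 listed macrophage and monocyte markers, 8 were higher in mutants and 0 were past the fold, with a median log2 difference of 0.16 and a summed signal of 489.3 in controls and 520.7 in mutants. The marker with the highest mean, without correction for length, was *Lyz2*, at 125.8 and 131.7, and *Ptprc*, carried by all leukocytes, stood at 21.98 and 26.4. Relative to *Ptprc*, *H2-Aa* stood at 1.23 in controls and 0.932 in mutants, *H2-Eb1* at 1.06 and 0.703, and *Cd74* at 2.57 and 2.03. All 3 ratios were lower in mutants. They rest on 1 marker that was itself higher, whereas 2 of the 10 markers, *Mrc1* and *Cd14*, were lower, with log2 differences of -0.08 and -0.15. Of the 6 dendritic markers in the table, led by *Zbtb46* at 4.68 and 4.50, 3 were higher and 3 lower, with a median log2 difference of -0.01, and they summed to 8.72 and 7.96. *Cd209a* was lower past the fold, with means of 1.64 and 0.966, and made most of the difference in the sum. The B cell list had 2 of 5 genes in the table, with *Cd79b* at 0.829 and 0.913 and *Cd79a* at 0.304 and 0.352, and with *Ms4a1* and *Pax5* among those not listed. Of 7 T and natural killer cell markers 3 were in the table and all were higher, with a sum of 4.16 and 6.14, of which *Cd4* made 3.62 and 5.46 and was past the fold. *Cd3e*, *Cd8a*, *Nkg7* and *Ncr1* were not listed, and *Cd3d* was near the level of 3 reads in both groups. The part of these cells in the class II values was not tested.

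The activators of both pathways were within the fold. *Ciita*, which switches on class II genes, had means of 1.64 in controls and 1.94 in mutants, and *Nlrc5*, its counterpart for class I, had means of 2.47 and 2.34. *H2-Ke6*, which carries its name for its place in the region and encodes a short-chain dehydrogenase, had means of 13.97 and 11.7, and 70.5% of its 50-base stretches also occur in *Gm20427*.

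Along the H2 region of chromosome 17, from 33974659 to 37483552, the members did not form a block of genes that differed together. The table held 124 genes there, 29 of them members. Of the 21 members with a mean of at least 1, 10 were higher and 0 were past the fold, with a median log2 difference of -0.01. Of the 75 other genes of the region at that level, 39 were higher, 1 was past the fold and the median was 0.00. That gene was *C4b*, a complement component, with means of 6.47 in controls and 11.2 in mutants. *Mill1* and the 16 other remaining members lie outside this region.

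**Figure D3:**
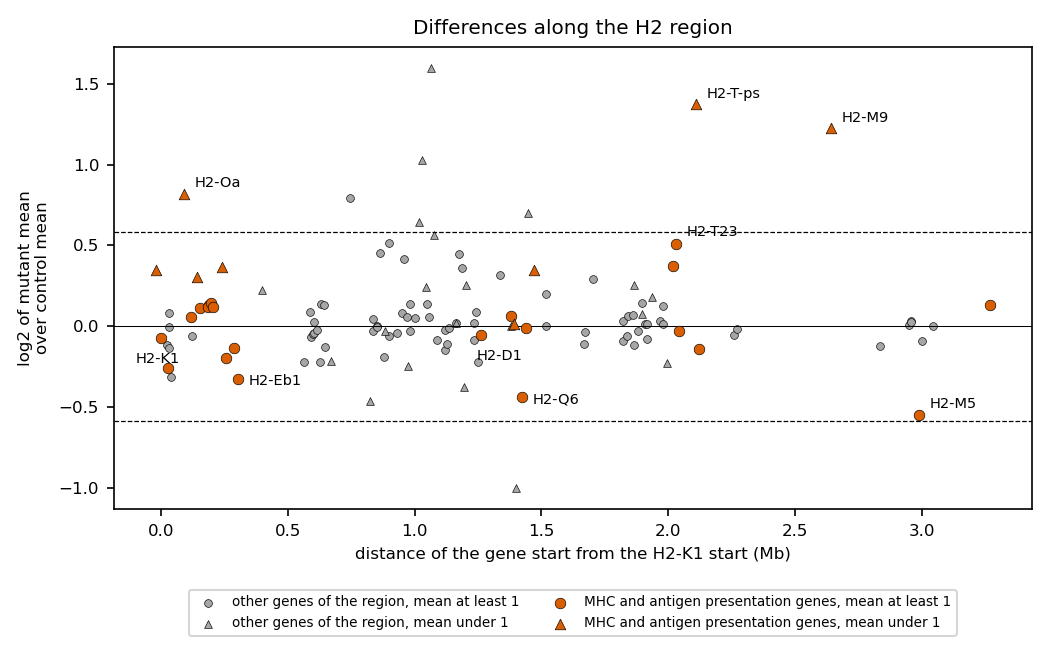
Log2 of mutant mean over control mean (vertical axis) by distance of the gene start from that of *H2-K1* in Mb (horizontal axis) for the 29 members and 95 other genes of the H2 region, with triangles for means under 1 and dashed lines at 1.5-fold. The members past the fold, *H2-Oa*, *H2-T-ps* and *H2-M9*, are all triangles.

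Of 42 genes of the pathway outside the member list, given in 7 lists, 38 were in the table, 18 higher and 20 lower in mutants, and *Cd1d2* was the only gene past the fold (background 7.37% higher and 5.8% lower). All 5 genes listed with the chaperones of peptide loading were lower, with a median log2 difference of -0.15. Of these, *Hspa5* and *Lnpep* were close to equal, with log2 differences of -0.01 and -0.04. The largest difference was that of *Calr*, with means of 1117 in controls and 822.9 in mutants. The 4 constitutive proteasome genes had a median log2 difference of -0.07. The 7 transcription factors of class II genes and the 8 genes of the interferon-γ axis had median log2 differences of 0.00 and -0.03, and *Crebbp* and *Jak1*, of the highest mean signal in these lists, stood at 119.4 and 202.6 in controls and 114.4 and 195.5 in mutants. *Irf1*, a transcription factor induced by interferon-γ, had means of 17.1 in controls and 18.1 in mutants. Of 6 class II processing genes, 5 were higher, with a median of 0.14, and with *Ctss*, the protease that degrades the invariant chain, at 42.0 and 49.96 and *Ctsb* at 601.9 and 623.6. The costimulatory receptor *Cd40* stood at 6.98 and 6.95, and 1 of the 3 costimulation genes was higher. All 5 listed stress ligands and class I-like genes in the table were higher, with a median log2 difference of 0.44. Among them, *Ulbp1*, a ligand of NKG2D, stood at 8.67 and 11.8, and *H60b*, another such ligand, at 0.857 and 1.28.

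Interferon-responsive genes were mostly higher in mutants, and 2 of the 14 listed were higher past the fold, against 7.37% of all genes. Both had a mean over both groups under 1, a level at which 17.9% of all genes were higher past the fold. The part of interferon in the difference of *Mill1* was not tested. Of these 14 genes 11 were higher and 3 lower, against 50.5% of all genes higher, with a median log2 difference of 0.17. *Mx1* was past the fold, with means of 0.718 in controls and 1.098 in mutants, as was the chemokine *Cxcl10*, at 0.268 and 0.624. *Stat2*, of the highest mean signal, had means of 26.7 and 26.2, *Iigp1* was higher, at 20.5 and 26.7, and *Gbp2* was lower, at 12.7 and 8.78. The list summed to 115.2 and 126.7.

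Epithelial markers were higher in mutants along with *Mill1*. All 8 listed genes were higher in mutants and 7 were past the fold, with a median log2 difference of 0.97 and a summed signal of 764.0 in controls and 1365 in mutants. *Krt15*, a keratin of basal epithelial cells, had means of 1.48 and 6.32, and *Krt5*, also a basal keratin, had means of 154.2 and 358.5. *Krt14* and *Krt17* stood at 90.4 and 56.7 in controls and 182.3 and 133.4 in mutants. *Cdh1*, *Trp63* and *Epcam* were higher past the fold as well, with log2 differences of 0.85, 0.92 and 0.78, and *Perp*, of the highest mean signal, was within it, at 274.1 and 343.7. Every epithelial marker was thus higher in the mutant mean. The ratio of *Mill1* to *Krt15* signal, not corrected for length, was 1.09 in controls and 0.999 in mutants, whereas that of *Mill1* to *Krt5* was 0.0105 and 0.0176 and that to *Epcam* was 0.0655 and 0.149. The ratios to *Krt14* and *Cdh1* were higher in mutants too, at 0.0179 and 0.0347 and at 0.0162 and 0.0349. *Mill1* therefore differed by a similar factor as *Krt15*, the listed epithelial marker with the lowest mean. It differed by a larger factor than every other epithelial marker of the list. Among the dental mesenchyme markers, 5 of 6 were lower, with *Col1a1*, of the highest mean signal, at 21211 and 17127, and *Gli1*, at 106.4 in controls and 46.1 in mutants, was the one past the fold. Only the mutants are described as carrying *Gli1-CreER*, so the Cre line and the number of cells cannot be told apart in the *Gli1* value. The 5 endothelial markers summed to 313.0 and 315.6, with *Cdh5*, of the highest mean signal, at 95.2 and 94.4. The part of epithelial transcripts in the difference of *Mill1* was not tested.

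**Figure D4:**
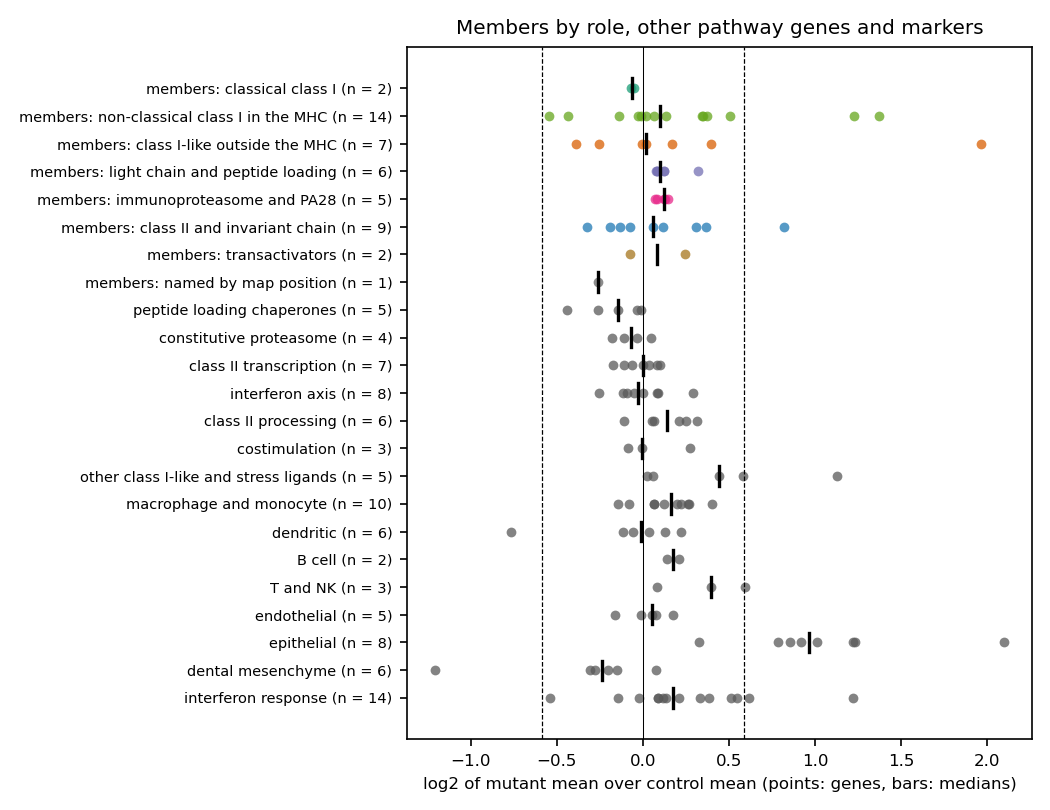
Log2 of mutant mean over control mean (horizontal axis) for the members by role, in colour, and for the lists of other pathway genes and of cell markers, in grey, with 1 point per gene, bars at the medians and dashed lines at 1.5-fold. The epithelial list has its median at 0.97, and the medians of the member roles with more than 1 gene lie between -0.06 and 0.12.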

How the data were processed

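RNA from the proximal incisor of 3 control and 3 mutant mice was sequenced, and, per the study's methods, the authors mapped trimmed reads to mm10 and used Partek Flow for the comparison. The submitters' processing notes name TopHat2 2.0.8. The counting of reads, its strand setting and the annotation are not given in the sources used here. The deposited values are a normalized signal, given as a mean per group for each of 19270 genes and as a summary over genes for each library, whose upper quartiles lay between 44.57 and 44.58. That summary has 2 further numeric columns that were not used. The deposited table also holds p-values, FDR, ratios and fold changes of the authors' comparison, and a filtered table holds the genes it called. None of these was used, so no value below carries an error or a test.

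Fold changes are ratios of the deposited means, and levels per kb divide them by the union of GENCODE vM21 exons on GRCm38 (the assembly of mm10), in which all 46 members matched 1 gene. Reads were estimated by taking the lowest value of each library as 1 read added to every gene, an inference from the values. A fold of 1.5 follows the study's methods and is applied without their FDR. Groups come from the sample titles. Shared 50-base stretches were counted exactly over GENCODE transcripts, and coding sequences were aligned locally with Biopython 1.88 (match 2, mismatch -3, gap opening -5 and extension -2). The call was tested on simulated data, with changes larger than 1.5-fold planted in genes with a mean of at least 10. That simulation did not cover *Mill1* or other genes of lower mean, and it held no variation between mice. Members, lists and alternatives were chosen with earlier results of these data known. Members named were *Mill1*, *H2-K1* and *H2-Aa*, those past the fold with a higher mean of at least 1, and in each role the 4 with the highest mean. Of the other lists, genes past the fold with a higher mean of at least 1 and the most abundant gene were to be named. Other genes, including *H2-T-ps*, *H2-M9*, *H2-Oa*, *Cxcl10*, *C4b* and *Gm45104*, were chosen after their values were seen. Protein sequences were not used here, and some listed genes are not reported here. Python 3.11.15 with numpy 2.4.6, pandas 2.3.3 and matplotlib 3.10.9 was used.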

Additional observations from a re-analysis of the deposited data

How the results depend on the processing

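No paired analysis was possible because values per gene and sample were not analysed here, and leaving out a replicate could not be run for the same reason. The 4 members higher past the fold became 10 at a bound of 0.32 on the log2 scale, 1 (*Mill1*) among members with a mean of at least 1, 0 with a mean of at least 10, which leaves *Mill1* out, and 1 (*Mill1*) with 1 added to both means. The members lower past the fold became 4 at that bound, namely *H2-M5*, *H2-Q6*, *Cd1d1* and *H2-Eb1*, and stayed at 0 otherwise. With 1 added to both means, the log2 differences of *H2-T-ps*, *H2-M9* and *H2-Oa* were 0.31, 0.23 and 0.18. That of *Mill1* lay between 1.48 and 2.02 under the 4 alternatives run for it. The median of the non-classical class I genes became 0.23 as a mean and -0.012 over members with a mean of at least 1, and that of the class I-like genes became 0.27 as a mean. The class II median became -0.10 and -0.13 over members with means of at least 1 and 10. These follow from *Mill1* and the rarest members entering the mean or leaving the median. Dividing the group means by the mean total of each group's libraries moved the median of all genes by 0.06 and turned *H2-D1*, *H2-T22*, *H2-Q7* and *Mr1* to slightly higher in mutants, with no other member changing direction under any of the 4 settings. Depth limits the members with a mean under 1, which rest on few reads.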
